A study of Mus musculus with 6 samples.

Results

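The genes that write, read and erase heterochromatin marks were examined for H3K9me3, the mark that several of them place, bind or remove. The set held 34 of 21938 protein-coding genes (autosomes, X and Y) and was listed by gene name, with no threshold on these data. It comprised 9 H3K9 methyltransferases and related genes, 9 readers and co-repressors, 8 demethylases, 3 H4K20 methyltransferases and 5 genes of DNA methylation. All 34 were found by symbol in the GENCODE annotation. In constitutive heterochromatin, H3K9 methyltransferases deposit a mark that HP1 proteins recognize, and HP1 in turn recruits H4K20 methyltransferases and more of the H3K9 enzymes. Kap1 (Trim28) brings the methyltransferase Setdb1 to zinc finger proteins bound at transposable elements, while demethylases of the KDM1, KDM3 and KDM4 families take methyl groups off H3K9. H3K9me3 is also known along the bodies of some genes, in particular zinc finger genes.

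ChIP-seq, in which DNA bound to an antibody against H3K9me3 is sequenced, was performed on neural stem cells (NSCs), which were cultured from the cerebral cortex of C57BL/6J mouse fetuses (E12.5) and are precursors of neurons and glia. The cells were transduced with lentivirus that carried either a scramble shRNA, named shCTR, or one that targets PHF8, named shPHF8, with puromycin selection in both conditions. PHF8 is a histone demethylase of H4K20me1 and of lower methylation states of H3K9. There were 2 ChIP libraries and 1 input per condition, and a list of broad peaks was used for each of the 4 ChIP libraries; the inputs were not used here. Nothing in the labels says whether the replicates came from separate cultures, so their spread may be technical, and the labels name 1 shRNA against PHF8. The lists hold positions only, without heights or read counts, so the depth behind each peak cannot be read from them, and a gene without a peak can still have reads. They measure neither RNA nor protein: the depletion of PHF8 and the identity of the cells were not checked with them. The gene Phf8 itself had no peak within its body or within 3 kb of its start in any library.

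The lists held between 44316 and 55555 peaks on the 21 chromosomes used. Peaks covered 157 and 160 Mb in the shCTR libraries (replicates 1 and 2, the order used throughout) and 219 and 197 Mb in the shPHF8 libraries. The shPHF8 replicate 1 library stood apart, with the fewest peaks and a median width of 4200 bp against 2400 to 2800 bp in the others. A ratio of covered bases between conditions therefore has to be read against the ratio of the whole covered length, which was 1.32. With 2 libraries against 2, the exact permutation test cannot give a p below 0.333, and a difference is described here by whether the values of the 2 conditions overlap.

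Shown first are stretches of DNA from the member genes that carried the mark in every library or had it at the start site in some libraries only. Positions are on GRCm38 (mm10), letters are on the plus strand, which is the sense strand of all 3 genes, and capitals mark each CG dinucleotide, the substrate of the DNA methyltransferases in the set. From the longest stretch of a member's gene body covered in all 4 libraries, 8800 bp in Atf7ip, the central 300 bases (chr6:136524650-136524949, intronic, 18483 to 18782 bp after the GENCODE gene start) held 3 CG dinucleotides, and 65.7% of them were soft-masked as repeats.
Atf7ip, intron: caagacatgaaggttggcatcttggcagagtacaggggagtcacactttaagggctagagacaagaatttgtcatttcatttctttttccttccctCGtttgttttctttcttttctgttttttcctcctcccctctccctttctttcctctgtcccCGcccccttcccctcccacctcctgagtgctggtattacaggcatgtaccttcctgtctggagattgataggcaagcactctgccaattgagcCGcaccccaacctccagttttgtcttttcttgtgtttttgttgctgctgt
The longest stretch of a promoter window covered in all 4 libraries measured 1676 bp and lay before Jmjd1c. Its central 300 bases (chr10:67093812-67094111, -2313 to -2014 bp relative to the gene start, in no annotated exon) also held 3 CG dinucleotides.
Jmjd1c, upstream: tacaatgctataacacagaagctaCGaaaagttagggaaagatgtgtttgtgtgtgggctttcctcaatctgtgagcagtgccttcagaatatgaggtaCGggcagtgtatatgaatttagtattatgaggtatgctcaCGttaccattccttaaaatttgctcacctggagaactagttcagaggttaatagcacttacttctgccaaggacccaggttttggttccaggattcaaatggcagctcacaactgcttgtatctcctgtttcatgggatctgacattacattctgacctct
No member had its GENCODE gene start covered in all 4 libraries. The next stretches were chosen after the values were seen, since they precede start sites that peaks reached in some libraries. The 250 bases before the Morc3 start (chr16:93831871-93832120) held 17 CG dinucleotides. Of these 250 bases, peaks covered 0 and 130 in the shCTR libraries and 250 and 130 in the shPHF8 libraries.
Morc3, upstream: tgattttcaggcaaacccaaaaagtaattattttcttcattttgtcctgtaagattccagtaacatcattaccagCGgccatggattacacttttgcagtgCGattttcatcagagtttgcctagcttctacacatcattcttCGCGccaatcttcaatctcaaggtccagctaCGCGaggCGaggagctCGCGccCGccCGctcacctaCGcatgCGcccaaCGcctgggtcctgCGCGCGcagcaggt
At Atf7ip, RefSeq places the start site 12684 bp inside the GENCODE gene. The bases from 250 to 50 before that site (chr6:136518601-136518801) held 15 CG dinucleotides, and all 201 bases were covered in both shCTR libraries and 0 in either shPHF8 library.
Atf7ip, upstream of the RefSeq start: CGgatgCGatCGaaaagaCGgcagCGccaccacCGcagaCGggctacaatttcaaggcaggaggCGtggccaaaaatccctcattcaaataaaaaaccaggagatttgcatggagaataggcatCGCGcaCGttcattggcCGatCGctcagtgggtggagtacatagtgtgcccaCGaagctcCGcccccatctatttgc
The stretches next to start sites held more CG dinucleotides than those taken from peaks shared by all libraries. Since the stretches also differ in their distance from a start site, this count does not relate CG content to the mark. Of the 34 members, 30 had a promoter of 300 bases in the RefSeq table for GRCm38.p6. For each member the promoter nearest the GENCODE start was used. The ratio of observed to expected CG had a median of 0.897 over these 30, and 27 (90%) lay above 0.6. Among the 21263 protein-coding promoters in the table, which can include several starts of a gene, 47.6% did, so the sets are not alike. The 3 exceptions were Kdm4c (0), Dnmt1 (0.101) and Uhrf1 (0.472), each of which has further RefSeq starts that were not scored.

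Most members had no called H3K9me3 peak near the gene start, at a share near that of all protein-coding genes. No peak of any library lay within 3 kb of the gene start in 24 of the 34 members (70.6%), beside 72.0% of all protein-coding genes. In 5 members (14.7%) a peak was present in all 4 libraries, beside 11.1% of all protein-coding genes: Atf7ip, Prdm16, Morc3, Kdm3a and Jmjd1c. The other 5 members with a promoter peak, Setdb1, Ehmt2, Rif1, Kdm1a and Kdm3b, had it in 1 to 3 libraries. Both shares lay near those of all genes. They depend on the use of 1 start per gene. With windows around any annotated transcript start, 18 members had no promoter peak and 7 had one in all 4 libraries. The shares over all genes were not computed for these windows.

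Among the methyltransferase genes, Atf7ip encodes the partner that stabilizes Setdb1 in the nucleus. Peaks covered 1567 and 2167 of the 6001 bases around the Atf7ip gene start in the shCTR libraries, and 3601 and 3001 bases in the shPHF8 libraries. All shPHF8 values were higher than all shCTR values. Prdm16, a PR-domain gene known in neural stem cells and brown fat, had 2001 and 4001 covered bases in shCTR and 3201 and 1401 in shPHF8, so that the conditions overlapped. Ehmt2, which with its dimer partner Ehmt1 forms the main H3K9 mono- and dimethyltransferase, had 1532 and 1000 covered bases in the shCTR libraries and 0 in both shPHF8 libraries. That peak ended 1469 bp before the Ehmt2 start in both shCTR libraries and lay over the neighbouring genes C2 and Zbtb12. In shPHF8 the nearest peaks to Ehmt2 were 65669 and 70269 bp away. Setdb1 had 2002 covered bases in shPHF8 replicate 1, the library with the widest peaks, and 0 in the other 3.

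Of the readers, Morc3, an ATPase that takes part in silencing of endogenous retroviruses, had the most covered promoter window. There, 4201 and 3601 bases were covered in the shCTR libraries and 3680 and 4601 in the shPHF8 libraries, and the conditions overlapped. Rif1, a regulator of replication timing, had 1232 and 632 covered bases in shCTR and 0 in both shPHF8 libraries. At both Ehmt2 and Rif1, then, a peak was found in both shCTR libraries and in neither shPHF8 library, 2 members of 34 (5.88%) beside 2.12% of all genes. No member (0) had a promoter peak in both shPHF8 libraries and neither shCTR library, beside 1.01% of all genes.

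The demethylase promoters that held a peak were those of Kdm1a and of all 3 members of the KDM3 family. Kdm3a, which removes H3K9 mono- and dimethylation, had 2190 covered bases in each shCTR library and 1990 and 590 in the shPHF8 libraries, lower in both shPHF8 libraries. Jmjd1c, a relative of Kdm3a, had 1876 bases in each shCTR library and 2076 and 1676 in shPHF8. Kdm3b had 1400 and 1200 in shCTR and 0 and 1400 in shPHF8. Kdm1a, the flavin-dependent demethylase of H3K4 and H3K9, had 1078 and 0 in shCTR and 1078 and 923 in shPHF8. The last 3 genes overlapped between conditions. No peak lay within 3 kb of the GENCODE gene start at the 4 KDM4 genes, whose products remove H3K9 trimethylation. The same held for the 3 H4K20 methyltransferases and the 5 genes of DNA methylation. Over all protein-coding genes, 72.0% had no promoter peak either. RefSeq starts further inside Dnmt1 and Dnmt3a met peaks of shCTR replicate 1, as given below.

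Covered bases of the promoter window were higher in both shPHF8 libraries for 1 member (Atf7ip, 2.94%, beside 4.05% of all genes) and lower in both for 3 (Ehmt2, Rif1 and Kdm3a, 8.82%, beside 4.09%). For each of these 4 genes the exact two-sided permutation test gave p = 0.333, the smallest it can give with these libraries.

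**Figure D1:**
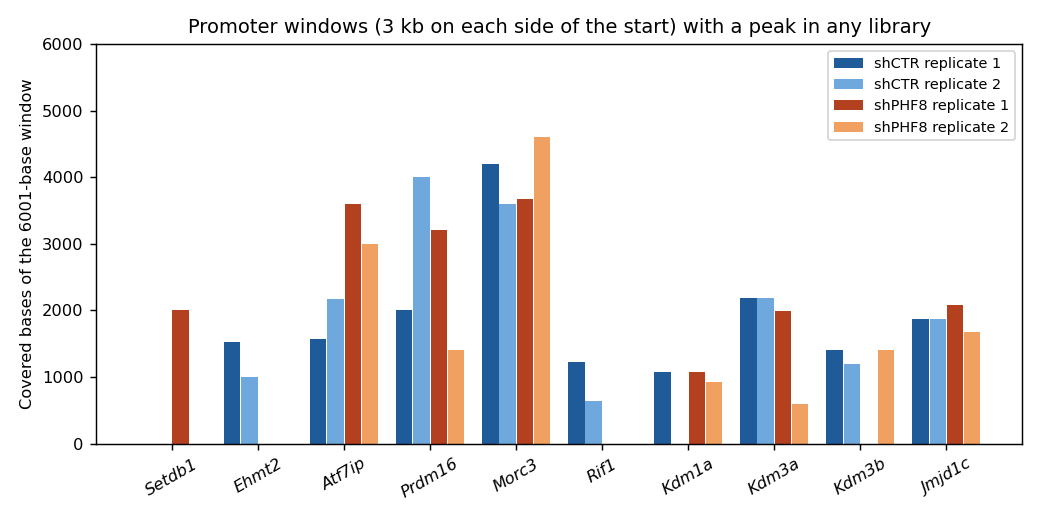
Bases covered by H3K9me3 peaks (y axis) within 3 kb on each side of the GENCODE gene start for the 10 members with a peak in any library; each bar is 1 library. Ehmt2 and Rif1 have bars for the shCTR libraries alone, and Morc3 has 3601 to 4601 covered bases in every library.

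The peaks counted at promoters lay beside the start sites and not over them. Over the 34 members and 4 libraries, the GENCODE gene start was under a peak once, at Morc3 in shPHF8 replicate 1. In the other 3 libraries peaks stopped 321, 121 and 121 bp before the Morc3 start and began again 1480, 1280 and 1280 bp after it. Peaks flanked the Prdm16 start in the same manner, ending 528 to 2728 bp before it and beginning 1473 to 1873 bp after it. Before Kdm3a they ended 811, 811, 1011 and 2411 bp from the start, and before Jmjd1c 925 to 1325 bp from it. Among the 2435 protein-coding genes with a promoter peak in all 4 libraries, 795 (32.6%) had the start itself covered in all 4 and 1040 (42.7%) in none.

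Start sites differ between annotations, and a gene can have several. RefSeq gives Atf7ip 1 start, where a cluster of 4 GENCODE transcript starts also lies, 12635 to 12679 bp after the gene start. Around the RefSeq start all 6001 bases were covered in both shCTR libraries. In the shPHF8 libraries 4001 and 2801 bases were covered, and the peaks left the start itself free: they ended 451 and 1651 bp before it and began again 1550 bp after it in both. So the window around the GENCODE start of Atf7ip had more covered bases in shPHF8, while the window around the RefSeq start had fewer. Among the 30 members with a 300-base RefSeq promoter, Atf7ip alone had a peak there in both shCTR libraries and neither shPHF8 library. This pattern was found for 0.757% of the protein-coding promoters in the table, which can include several starts of a gene. The site was picked after its values were seen, so that share does not measure how unusual it is.

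Mecom, a PR-domain gene with long and short isoforms known for its role in blood stem cells, had no peak near its GENCODE start. At the first RefSeq start, 38249 bp further on, 3001 and 3201 bases of the window were covered in the shCTR libraries and 3801 and 2359 in the shPHF8 libraries. At its second RefSeq start, 534804 bp from the gene start, peaks covered 1597 and 2197 bases in the shCTR libraries and 0 in both shPHF8 libraries. Jmjd1c, in contrast, had 0 covered bases in every library around both of its RefSeq starts. The peak counted at its promoter lay before the GENCODE start, inside the neighbouring gene Reep3. With the RefSeq start nearest to the GENCODE start, 5 members again had a promoter peak in all 4 libraries, with Mecom in place of Jmjd1c. Within the narrower 300-base RefSeq promoters, 3 of 30 members (10.0%) had a peak in at least 1 library, beside 10.6% of the protein-coding promoters. None (0) had one in all 4, beside 3.48%. In both comparisons 1 start per member is set beside all starts in the table. RefSeq starts further inside the genes of DNA methyltransferases met peaks of shCTR replicate 1 alone: 1000 bases were covered around the Dnmt1 starts 6909 and 7265 bp after the gene start, and 2000 bases, the start included, around the Dnmt3a start 85737 bp after it. At Atf7ip, 4 internal GENCODE transcript starts, 26760, 45020, 54676 and 71412 bp after the gene start, lay under a peak in all 4 libraries.

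**Figure D2:**
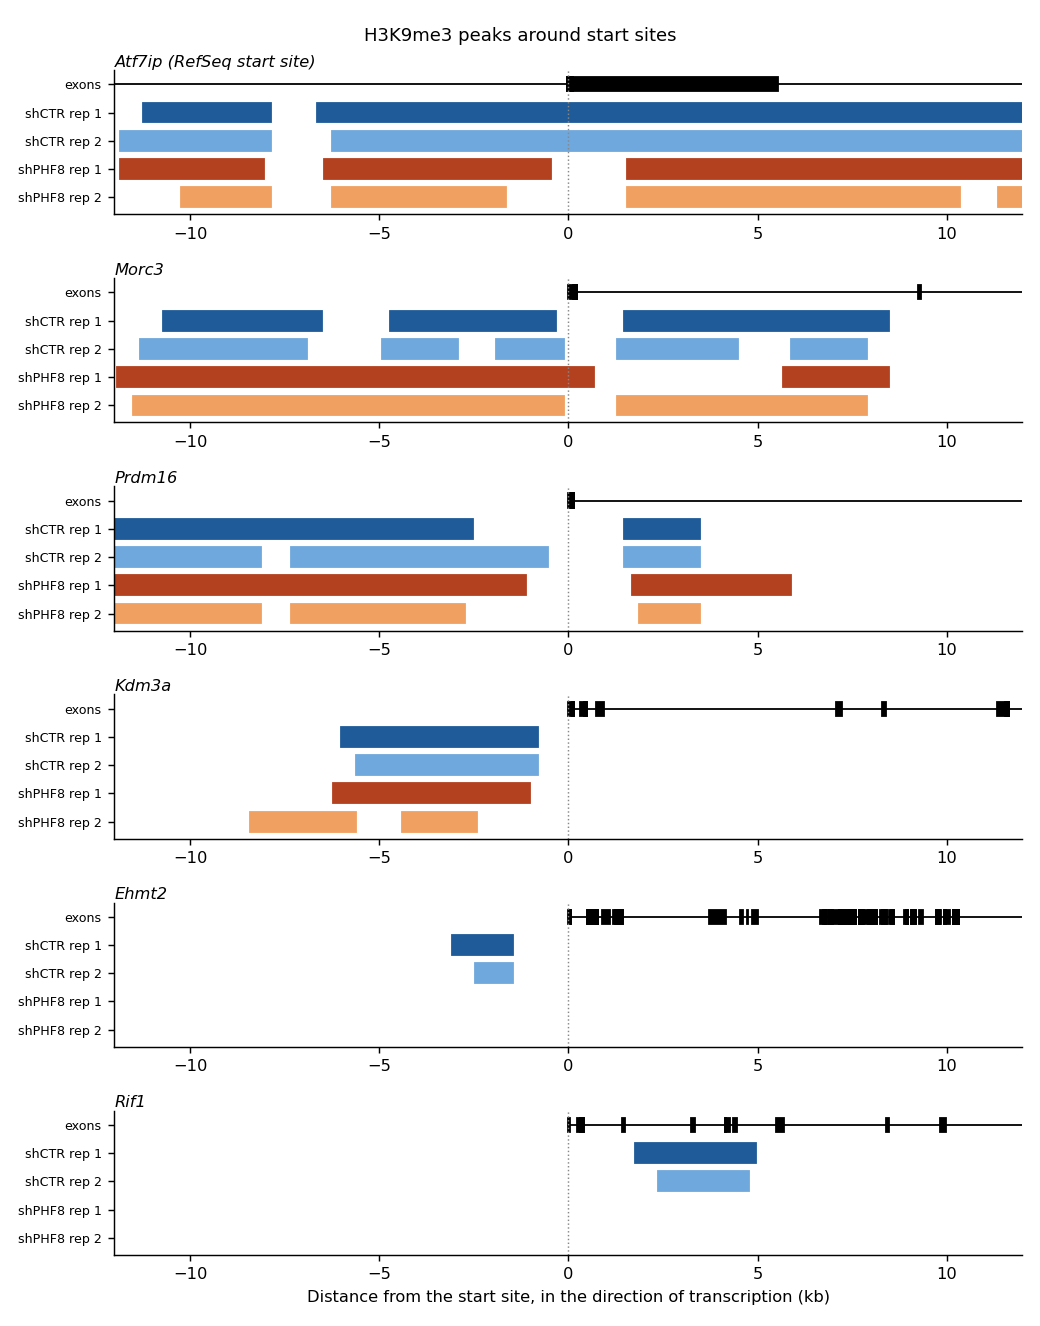
Peaks of each library within 12 kb of the start site of 6 members (x axis, distance in kb in the direction of transcription; dotted line, start site; black boxes, exons; one row per library). Peaks run across the RefSeq start of Atf7ip in both shCTR libraries and stop short of it in both shPHF8 libraries, and those at Ehmt2 and Rif1 appear in the shCTR rows alone.

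Within gene bodies, a peak was found in all 4 libraries for 10 members (29.4%), the same share as among all protein-coding genes (29.4%). These were Setdb1, Atf7ip, Prdm16, Mecom, Cbx5, Morc3, Jmjd1c, Kdm4a, Kdm4d and Hells. In 14 members (41.2%) no library had a peak in the gene body, beside 52.8% of all genes. The remaining 10 had one in 1 to 3 libraries. Members were longer than other genes, with a median length of 43986 bp against 17425 bp, and longer genes are more often touched by a peak. Of the 8 members of at least 100 kb, 4 (50.0%) had a body peak in all 4 libraries, beside 77.0% of all genes of that length. Of the 26 shorter members, 6 (23.1%) did, beside 23.3%. Spearman's rho between gene length and mean covered bases was 0.650 over the 34 members and 0.563 over all protein-coding genes, given as a description, since the genes share the same libraries.

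By role, a body peak in all 4 libraries was found in 4 of the 9 methyltransferases and related genes, 2 of the 9 readers, 3 of the 8 demethylases, 0 of the 3 H4K20 methyltransferases and 1 of the 5 genes of DNA methylation. The median of the mean covered share was 1.70% for the methyltransferases and 3.82% for the demethylases. It was 0 for the readers and the H4K20 methyltransferases and 0.475% for the DNA methylation genes, and over all members it was 0.852%, beside 0 over all protein-coding genes. These counts and shares were not adjusted for gene length.

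**Figure D3:**
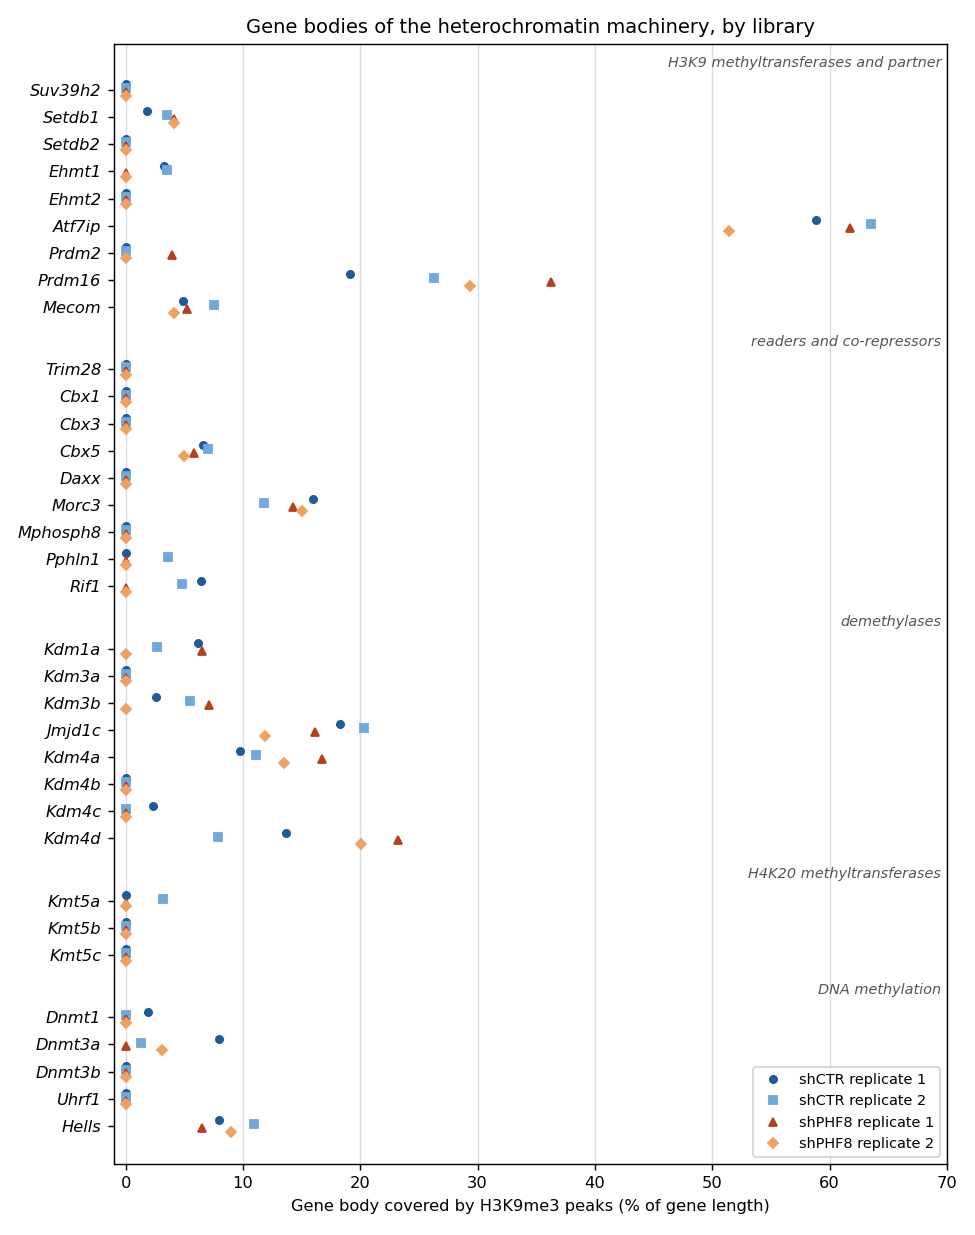
Share of the gene body covered by peaks (x axis, % of gene length) for each of the 34 members, grouped by role; each symbol is 1 library. Atf7ip stands between 51.4 and 63.5% in every library, followed by Prdm16 at 19.1 to 36.2%, and most other members lie near 0.

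Atf7ip (ENSMUSG00000030213.12, chr6:136506167-136610862, plus strand) was the member with the largest share of its body under H3K9me3. The covered share was 58.8 and 63.5% in the shCTR libraries and 61.8 and 51.4% in the shPHF8 libraries. The mean share, 58.9%, was higher than in 97.0% of protein-coding genes. Of the 71862 bases covered in any library, 49600 (69.0%) were covered in all 4, so the peaks lay in the same place across libraries. The largest regions after merging the libraries were 29800 bp (chr6:136512201-136542000) and 34400 bp (chr6:136549201-136583600) wide and held 5723 and 8415 bases of Atf7ip exons. Beyond the gene the cover went on, with a region of 14000 bp that ended 567 bp before the gene start. The 100 kb before and the 100 kb after the gene together held between 62000 and 101138 covered bases, depending on the library. The conditions overlapped over the gene body.

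Prdm16 (ENSMUSG00000039410.16, chr4:154316125-154636873, minus strand) held the most covered bases on average, and more than Atf7ip in all libraries but shCTR replicate 1 (61200 against 61600). There were 61200 and 84400 in shCTR and 116200 and 94000 in shPHF8, or 19.1 and 26.3% against 36.2 and 29.3% of the gene, and the conditions did not overlap. In contrast to Atf7ip, 33000 of the 156800 bases covered in any library were covered in all 4. The cover lay mostly in introns. The widest merged region, 27800 bp (chr4:154458801-154486600), had 8400 and 19600 covered bases in shCTR and 25200 and 25400 in shPHF8. A pair of further regions had peaks in both shPHF8 libraries alone: 8400 and 3400 bases at chr4:154526401-154534800, and 4800 and 3400 bases at chr4:154611201-154618600.

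Jmjd1c (ENSMUSG00000037876.17, chr10:67096125-67256326, plus strand) moved the other way. Covered bases were 29200 and 32600 in shCTR and 25800 and 19000 in shPHF8, a difference of means of -8500 bp with no overlap. Its promoter-proximal region inside Reep3 had 7600 and 8400 covered bases in shCTR and 6200 and 6000 in shPHF8. A pair of Jmjd1c regions, 37276 to 38875 bp and 149876 to 151475 bp after the start, had peaks in the shCTR libraries alone. Mecom (ENSMUSG00000027684.16, chr3:29951296-30548008, minus strand), the longest member at 596713 bp, had 29200 and 44800 covered bases in shCTR and 31000 and 24600 in shPHF8, a mean share of 5.43%. The conditions overlapped, and the widest region, chr3:30510001-30524800, just before the first RefSeq start, had 11000 to 13800 covered bases in every library.

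These 4 long genes, Prdm16, Atf7ip, Mecom and Jmjd1c, made up 78.7, 85.3, 85.3 and 86.1% of all bases covered in the bodies of the 34 members in the 4 libraries. Sums over the set are therefore mostly sums over these genes.

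**Figure D4:**
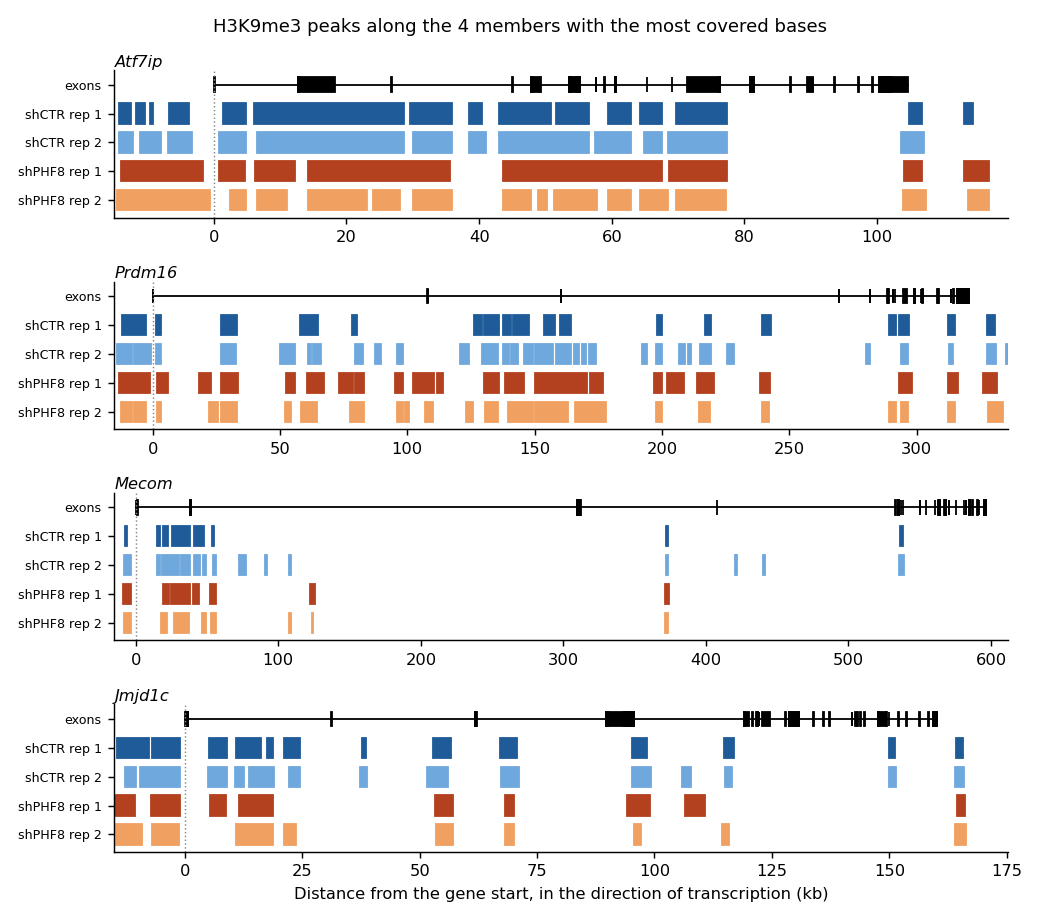
Peaks of each library along Atf7ip, Prdm16, Mecom and Jmjd1c with 15 kb on each side (x axis, distance from the GENCODE gene start in kb, in the direction of transcription; black boxes, exons; one row per library). Peaks fill much of Atf7ip in all 4 libraries, are scattered over introns of Prdm16 and gather near the beginning of Mecom.

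The shorter genes with a peak in every library each held few regions. Kdm4d and Kdm4a encode demethylases of H3K9 trimethylation. In Kdm4d 1 intronic region (chr9:14468401-14477200) held 5200 and 3000 covered bases in the shCTR libraries and 8800 and 7600 in the shPHF8 libraries, a mean of 16.2% of the gene. Kdm4a had 4200 and 4800 covered bases in shCTR and 7200 and 5800 in shPHF8 (12.8%). Both were higher in both shPHF8 libraries than in either shCTR library. For Kdm4a this did not hold with the same number of widest peaks or with scaling to the same total, and the difference turned to -2000 bp when the widest peaks were kept to an equal length. Of the other KDM4 genes, Kdm4c had a peak in shCTR replicate 1 alone (3800 bases) and Kdm4b had none.

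Morc3 had 7000 and 5200 covered bases in its body in shCTR and 6280 and 6600 in shPHF8 (14.3%), and Hells, a chromatin remodeler needed for DNA methylation at repeats, had 3200 and 4400 in shCTR and 2600 and 3600 in shPHF8 (8.60%). The conditions overlapped at both genes. In Cbx5, which encodes HP1 alpha, a single intronic region (chr15:103233401-103236800) had 3200 and 3400 covered bases in shCTR and 2800 and 2400 in shPHF8. Its values did not overlap, although they differed by 700 bp in the mean, and 70.6% of the covered bases were shared by all 4 libraries. The other HP1 genes, Cbx1 and Cbx3, had no peak in their bodies. Setdb1, the methyltransferase recruited by Kap1, had 600 and 1200 covered bases in shCTR and 1400 in each shPHF8 library.

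Peaks that were present in both shCTR libraries and in neither shPHF8 library were found in the bodies of Ehmt1 and Rif1, 2 of 34 members (5.88%), beside 2.03% of all genes. None (0) of the members showed the opposite, beside 1.11% of all genes. Ehmt1 (ENSMUSG00000036893.17, chr2:24789928-24919614) had 4200 and 4600 covered bases in shCTR, in a pair of regions (chr2:24886601-24890600 and chr2:24909201-24911600). Rif1 (ENSMUSG00000036202.16, chr2:52072832-52122383) had 3200 and 2400, in the region chr2:52074601-52077800, which is also the one counted at its promoter. A second region of 7000 bp just after the end of Rif1, chr2:52122401-52129400, had peaks in all 4 libraries. Ehmt2, the gene of the dimer partner of Ehmt1, had no body peak in any library, and Ehmt1 had no promoter peak in any library. The promoter peak of Ehmt2, found in the shCTR libraries alone, lay upstream of its start over C2 and Zbtb12. The peaks of these genes were thus counted in different windows. The share of all genes with such a peak in either window was not computed.

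Over all members, both shPHF8 libraries had more covered gene body than both shCTR libraries in 4 genes (Setdb1, Prdm16, Kdm4a and Kdm4d, 11.8%), beside 13.0% of all protein-coding genes, and less in 4 (Ehmt1, Cbx5, Rif1 and Jmjd1c, 11.8%), beside 6.08%. Each of these 8 gave p = 0.333 in the exact two-sided permutation test. Kdm4d was higher and Ehmt1, Cbx5, Rif1 and Jmjd1c were lower under the 8 alternatives in which the genes were listed by name. Some of these could not have come out otherwise. Leaving out a single library cannot undo such a call, and scaling cannot undo it at Ehmt1 and Rif1, with 0 covered bases in shPHF8. The call at Cbx5 was lost when a gap of at least 1000 bases between the conditions was asked for, which left 3 members lower. The covered bases of all members summed to 230200 and 267570 in shCTR and 278742 and 222262 in shPHF8, a ratio of 1.01 between conditions, beside 1.20 over all protein-coding genes. Without Prdm16 the ratio was 0.826, so the direction of the sum rested on that gene, and it was below 1 without shCTR replicate 1 (0.936) or shPHF8 replicate 1 (0.893). Scaled to the same total of covered bases per library, Prdm16, Setdb1 and Kdm4a no longer separated the conditions.

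**Figure D5:**
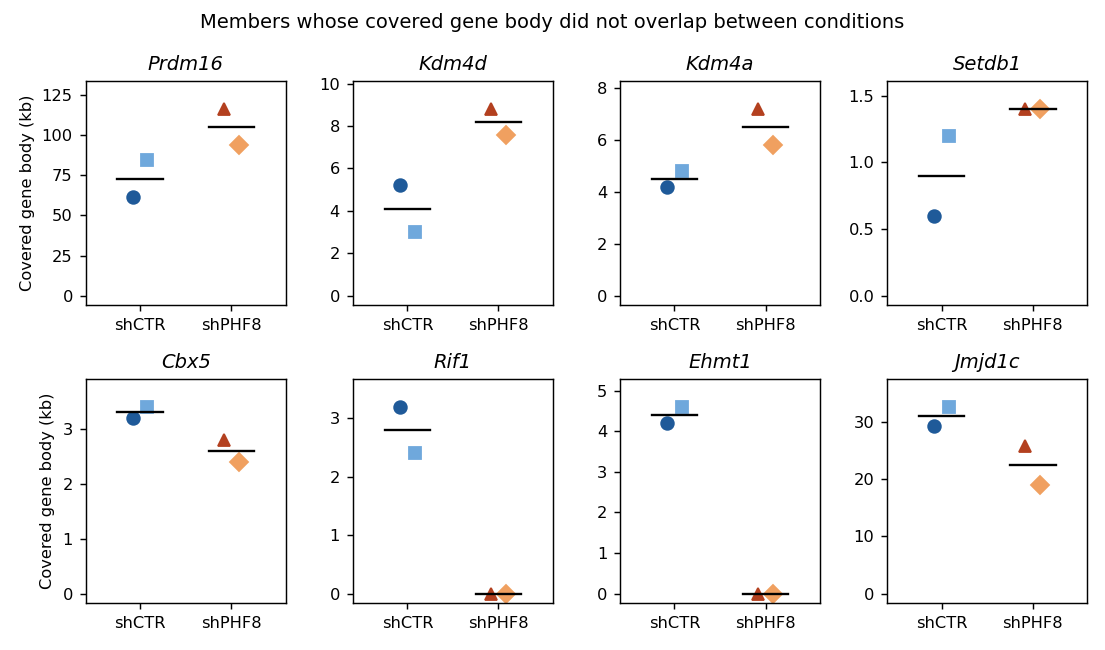
Covered gene body (y axis, kb, one scale per gene, starting near 0) in shCTR and shPHF8 for the 8 members whose conditions did not overlap; each symbol is 1 library and the line is the mean of the 2 libraries. Ehmt1 and Rif1 are at 0 in both shPHF8 libraries, and Prdm16 shows the largest difference in bases, 32300 bp.

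After merging peaks across libraries, 82 regions touched the bodies of 20 members. Of these, 31 (37.8%) had a peak in all 4 libraries, beside 40.6% of the 31896 such regions in protein-coding genes. These shared regions had a median width of 5200 bp, and 11 of them touched an exon. Regions with a peak in both shCTR and no shPHF8 library numbered 8 (9.76%, beside 6.43%), in Ehmt1, Atf7ip, Mecom, Rif1 and Jmjd1c. The reverse was found for 3 (3.66%, beside 3.64%), in Prdm16 and Mecom. A further 25 regions in 11 members had a peak in 1 library alone and were narrower, with a median of 2000 bp.

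Repeat content was compared between the bases under shared peaks and the uncovered bases of the same genes. No such comparison was made over all protein-coding genes, so the counts below have no share beside them. In 9 of the 10 genes with a body peak in all libraries, the soft-masked share was higher in bases covered in all 4 libraries than in bases covered in none. It was 83.6 against 33.3% in Kdm4d, 69.9 against 34.7% in Hells and 65.5 against 36.5% in Cbx5. The shares hardly differed in Mecom (20.0 against 19.8%), and Prdm16 was lower under the shared peaks, with 11.2 against 15.8%. Pooled over the 10 genes they were 29.3 and 22.0%. The shared bases were few in some genes, with 600 in Setdb1. GC content was higher under the shared peaks in 6 of the 10. The reads were short and repeats are hard to place, and the part of read placement in these peaks was not tested.

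In the members with a body peak in 1 to 3 libraries, the cover was small. Dnmt3a, a de novo DNA methyltransferase, had 8600 and 1400 covered bases in shCTR and 0 and 3400 in shPHF8, and no base of it was covered in all 4. Dnmt1, the maintenance methyltransferase, had 1000 bases in shCTR replicate 1 alone, Kmt5a, the H4K20 monomethyltransferase, had 708 and Pphln1, a HUSH complex subunit, 3400 in shCTR replicate 2 alone, and Prdm2 had 4200 in shPHF8 replicate 1 alone. Kdm1a had 3200 and 1400 in shCTR and 3400 and 0 in shPHF8, and Kdm3b had 1600 and 3400 in shCTR and 4400 and 0 in shPHF8. None of these genes separated the conditions.

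The 14 members without a body peak were Suv39h2, Setdb2, Ehmt2, Trim28, Cbx1, Cbx3, Daxx, Mphosph8, Kdm3a, Kdm4b, Kmt5b, Kmt5c, Dnmt3b and Uhrf1. Their distance to the nearest peak ranged from 97 to 99715 bp, with a median of the means over libraries of 12943 bp. Of these members, 4 had a peak within 10 kb in every library: Cbx3, Daxx, Kdm3a and Kmt5b. Such distances are not given for all protein-coding genes, so this count and median have nothing beside them. Near Cbx3, which encodes HP1 gamma, peaks began 97, 2897, 97 and 3697 bp after the gene end. Those near Daxx, a chaperone of histone H3.3, lay 1611 to 2011 bp after its end, over Tapbp and Zbtb22, and those near Kmt5b 3621 to 4421 bp before its start. These peaks were present in both conditions.

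For several members the nearest peak belonged to a neighbouring gene in every library. The nearest to Dnmt3b lay over its paralog Dnmt3c, 17471 to 19271 bp after the end of Dnmt3b. Trim28 was 10566 to 11566 bp from a peak over the zinc finger gene Mzf1. Mphosph8, a reader of H3K9me3 in the HUSH complex, was 12248 to 13648 bp from a peak over Parp4, and Kdm4b 18731 to 20531 bp from one over Ptprs. At Uhrf1 and Suv39h2 the distance varied between libraries, from 3121 to 99715 bp and from 4370 to 79770 bp.

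Other genes of the same pathways, a list of 57 that included Polycomb, TET, MBD and further methyltransferase genes, were counted for comparison, and 55 were matched by symbol (Tasor and Tasor2 were not). A promoter peak in all 4 libraries was found for 12 (21.8%, beside 11.1% of all protein-coding genes), among them Cbx7, Morc2a, Hdac2, Riox1, Nsd1, Riox2, Ring1 and Cbx8. No library had one for 35 (63.6%, beside 72.0%). In gene bodies, 32 (58.2%, beside 29.4% of all genes) had a peak in all 4 libraries and 15 (27.3%, beside 52.8%) in none. The list includes long genes, such as Mbd5 at 375898 bp. These counts were not adjusted for gene length, so they do not compare the list with the members or with all genes at equal length. Both shPHF8 libraries had more covered gene body in 6 (10.9%, beside 13.0% of all genes) and less in 7 (12.7%, beside 6.08%). The summed ratio was 1.09. Promoter peaks in both shCTR libraries and neither shPHF8 library, seen at Ehmt2 and Rif1, were found for 0 of the 55, beside 2.12% of all genes.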

How the data were processed

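H3K9me3 ChIP-seq peaks of 2 shCTR and 2 shPHF8 libraries from mouse NSCs were used. According to the methods and labels, the authors used SOAPaligner/SOAP2 to place single-end reads on mm10 and SICER2 to call broad peaks. The window, gap, false discovery rate and use of the input are not given in the sources used here. The processing notes also name Bowtie2 2.3.5.1, SAMtools 1.9 and deepTools, which the methods tie to another assay. The deposited lists, 1 per library, hold the start and end of each peak and no score, with widths in multiples of 200 bp and gaps of at least 800 bp, so the depth behind a peak is not shown and no interval for counting error is given; read totals per library that the study lists were not used here. Whether a peak is present also reflects how deeply a library was sequenced and the threshold used.

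Starts were read as 0-based and ends as inclusive, and 1-based positions are printed. Only the autosomes, X and Y entered. Genes came from GENCODE M21 on GRCm38, sequences and composition from GRCm38.p6, and promoters of 300 bases from RefSeq. A promoter was the gene start with 3 kb on each side, a gene body ran from start to end, and 1 shared base counted as overlap. Counts over members were set beside those over 21938 protein-coding genes, with no test over the members. Single genes were compared by an exact two-sided permutation test of covered bases. The members and lists were chosen with earlier results of these data known. Values were given per library for members with a promoter peak in any library, for the 8 with the largest covered share among those with a body peak in every library, and for those whose body cover did not overlap between conditions. Of the 4 sequences, 2 came from stretches covered in all 4 libraries and 2 from start sites chosen after their values were seen. The alternative values tried were other promoter widths and starts, peak width and number, scaling, gaps, single libraries left out and the replicate number. Whether the replicate numbers pair the libraries is not known. Python 3.11.15 with numpy 2.4.6, scipy 1.17.1 and matplotlib 3.10.9 was used, and coverage and calls were tested on simulated data.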

Additional observations from a re-analysis of the deposited data

How the results depend on the processing

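The count of members with a promoter peak in all 4 libraries was 1 with a promoter of 1 kb on each side, and that with a body peak in all 4 was 6 when each library kept its widest peaks to an equal total length. Members with more covered gene body in both shPHF8 libraries numbered 2 with the same number of widest peaks, 2 with that equal length, 1 after scaling each library to one total, and 4 to 7 when single libraries were left out (7 without shPHF8 replicate 2). Members with less numbered 8 with equal covered length, 7 with scaling and 6 to 9 when single libraries were left out (9 without shCTR replicate 1, 8 without shCTR replicate 2 and 8 without shPHF8 replicate 1). A count with a library left out needs fewer libraries, and for the other changes the cause was not tested.

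The ratio of covered gene body over all members (1.01, SD 0.193) fell below 1 with equal covered length (0.818), with scaling (0.763), which both remove the difference in total covered length, and without Prdm16 (0.826), a setting chosen after seeing the data. When single libraries were left out it ranged from 0.893 to 1.12. The differences at Setdb1 and Kdm4a were reversed with equal covered length (-900 and -2000 bp).

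With the replicate number as a block, 4 members were higher and 5 lower in shPHF8, and the ratio was 1.02. The block was run for these 3 results. Pearson's r of the deviations of libraries with the same number was -0.108 over 10353 genes with a body peak. With 2 libraries per condition, this value cannot tell whether the number is a pairing. With the crossed pairing, chosen after seeing the data, 4 members were higher and 7 lower. The nearest RefSeq start of each gene, also added after seeing the data and with GENCODE starts kept for the 4 members that lack one, left 5 members with a promoter peak in all 4 libraries and 24 with none. Of all values of these counts and ratios, 57, some of them given above, moved less than the limits set for a change. All results concern called peaks alone, since neither heights nor reads were in the lists.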
